A study of Mus musculus with 62 samples.

Results

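The AP-1 factor genes described here are the FOS family members Fos, Fosb and Fosl2, the JUN family members Jun, Junb and Jund, and the related dimer partners Jdp2, Batf and Atf3. Their loci were chosen by name as the gene body plus 20 kb on each side in GENCODE M21 (mm10), and held 711 of the 1709082 autosomal sites listed in 14 tables of differing CUT&Tag signal. The 9 genes are 9 of the 21951 protein-coding genes in that annotation. Fos (chr12:85473890-85477273), Jdp2 (chr12:85599027-85639878) and Batf (chr12:85686669-85709087) are neighbours on the plus strand of chromosome 12. Junb (chr8:84974484-84978718) and Jund (chr8:70698949-70700616) share chromosome 8, and Fosb lies at chr7:19302696-19310051, Fosl2 at chr5:32135801-32157842, Jun at chr4:95049034-95052222 and Atf3 at chr1:191170296-191218039. The flanked loci do not overlap, although those of Fosb, Junb, Jund and Atf3 take in other genes, such as Rtn2 at Fosb and Prdx2 at Junb. CUT&Tag maps where an antibody-bound protein or histone mark sits on DNA, by the cuts of a tethered transposase. The nuclei came from haematopoietic stem and progenitor cells (HSPCs), lineage-negative and c-Kit-positive bone marrow cells of adult C57BL/6 mice enriched on magnetic columns.

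WT mice were Daxx +/+ Cre +/-, Daxx-KO mice were Daxx F/F Cre +/- and DKO mice carried Pu.1 F/F in addition to Daxx F/F, again with Cre +/-. Every animal, WT included, thus carried the Mx1Cre transgene, which answers to interferon and is active beyond blood cells, and was injected with pI:pC, itself an inducer of interferon. Times are weeks after that induction (w.p.i.). At 3 w.p.i. the histone variant H3.3, the transcription factor Pu.1, the active mark H3K27ac and the heterochromatin mark H3K9me3 were compared between 2 Daxx-KO and 2 WT libraries. The Polycomb mark H3K27me3 joined these at 24 w.p.i., again with 2 libraries a group. At 8 w.p.i., 3 libraries a group of Daxx-KO, DKO and WT were used for H3K9me3, and DKO was compared with WT and with Daxx-KO for H3K27me3. The series has 62 libraries, of which 54 are in these tables, and the other 8 (DKO, 24 w.p.i.) were not analysed here.

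AP-1 factors are basic leucine zipper proteins that bind DNA as dimers, typically a FOS or ATF-like protein with a JUN protein, at the palindromic AP-1 element or the related cyclic AMP response element (CRE). Fos, Fosb, Jun, Junb and Atf3 are immediate-early genes, induced within minutes of growth factor, stress or cytokine signals by transcription factors already bound at their promoters. In blood cells, AP-1 joins lineage factors such as Pu.1 and C/EBP proteins at myeloid enhancers, and Batf pairs with JUN proteins in lymphocytes.

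Depth was uneven. The mean number of reads per 600-bp window ranged from 0.2 to 33.8 over the libraries, and at 3 w.p.i. the WT libraries held 22.9 and 3.06 for H3.3 and 33.8 and 2.75 for Pu.1, beside 9.43 to 11.99 in Daxx-KO. For H3K27ac the means were 1.33 to 2.26 at 3 w.p.i. and 3.97 to 10.3 at 24 w.p.i., so levels cannot be set against each other across times. Over the Daxx gene, the H3K27ac site chr17:33909801-33913400 held 858 and 368 normalised reads in WT and 113 and 93.7 in Daxx-KO at 24 w.p.i. At 3 w.p.i. the site chr17:33909601-33911450 had 65.6 and 105 in WT and 24.2 and 13.6 in Daxx-KO. Other sites over the gene were higher in Daxx-KO, such as H3K27ac at chr17:33914651-33916950 at 24 w.p.i. (1875 and 1617 against 712 and 914). H3.3 at chr17:33909151-33910200 at 3 w.p.i. was 82.9 and 122 against 40.7 and 20.95. The coordinates of the deleted exons were not set against these sites. Normalised reads are the reads of a site divided by a constant of the library, as deposited. No site was listed over Daxx or over Spi1, the gene of Pu.1, in the tables of DKO, so those labels could not be checked in this way. The samples were bulk nuclei, in which fewer cells with a mark and less of it per cell cannot be told apart. The tables hold only sites that differed in the authors' window test, so an unlisted region shows no level at all.

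A site is called gained here where every library of the knockout group lay above every control library, and lost where every one lay below. For one site, the smallest p that an exact two-sided permutation test allows is 0.333 with 2 against 2 libraries and 0.1 with 3 against 3, so no p is given for single sites. The share of gained and lost sites among all autosomal sites of the same table is the background against which each count is read.

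At 3 w.p.i. the AP-1 loci carried more H3.3 and more Pu.1 in Daxx-KO at most of their listed sites, and less H3K27ac at their promoters. For H3.3, 52 of 69 sites were gained (75.4%, Wilson 95% interval 64.0 to 84.0) and 17 were lost, whereas 57.7% of all autosomal sites were gained and 40.7% lost. For Pu.1, 58 of 80 sites were gained (72.5%, 61.9 to 81.1) and 20 lost, beside 54.1% and 44% over all sites. AP-1 sites were richer in G and C than the rest (median 52.5% against 49.0% for H3.3), and among all sites at the same GC content 67.7% were gained for H3.3 and 65.6% for Pu.1. These 2 values lay within the intervals of the AP-1 loci. Without the shallow WT library (replicate 2) the shares gained were 75.4% for H3.3 and 75.0% for Pu.1. Leaving out a library can only keep or raise this share, and the sites had been listed with that library. Its part in the gains therefore cannot be judged in this way. Scaled to the mean reads per window of each library in place of the deposited constant, the gained counts were again 52 and 58, while the lost counts were 9 for H3.3 (13.04%, beside 31.5% of all sites) and 12 for Pu.1 (15.0%, beside 32.2%). For H3K27ac, 29 of 76 sites were gained (38.2%) and 45 lost (59.2%), close to the 39.2% and 58.4% of all sites. Wilson intervals take sites as independent and cover the number of sites only.

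**Figure D1:**
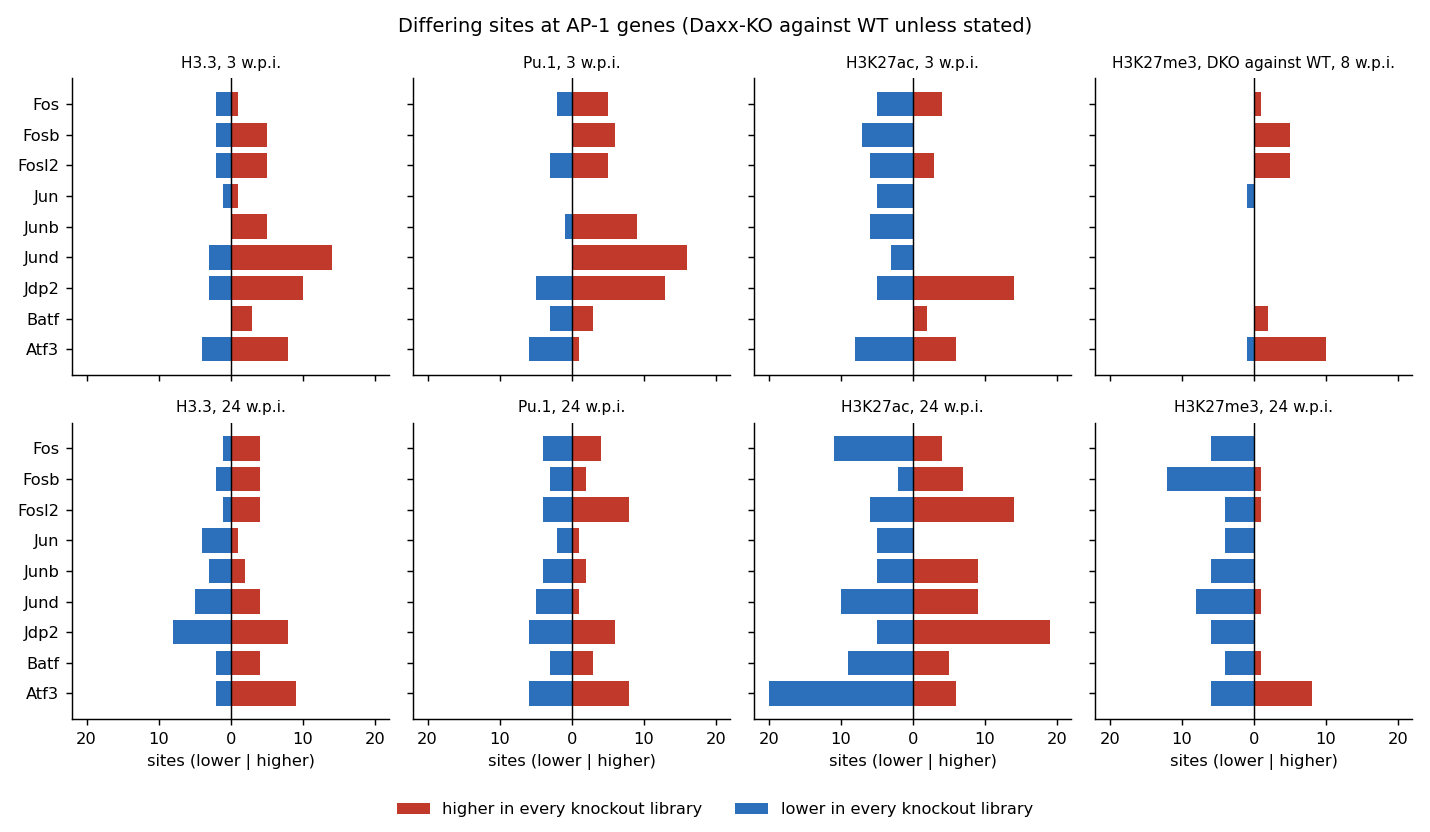
Number of sites at each AP-1 gene (rows) that were higher in every knockout library (red, to the right) or lower in every one (blue, to the left), for 8 of the 14 tables. For H3K27me3 at 24 w.p.i. 8 of the 9 genes had more lost than gained sites, with Atf3 the exception (8 gained, 6 lost).

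**Figure D2:**
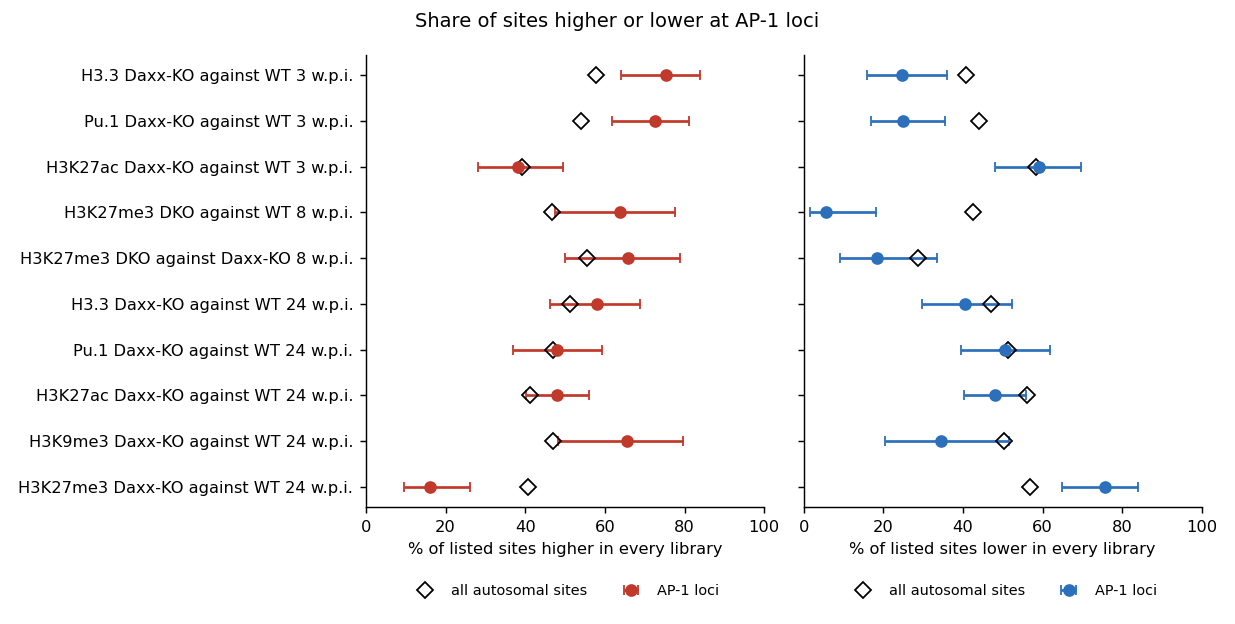
Percentage of listed sites gained (left, red) and lost (right, blue) at the AP-1 loci with Wilson 95% intervals, and over all autosomal sites of the same table (open diamonds), for the 10 tables with at least 30 AP-1 sites. The AP-1 interval lay above the diamond for gained H3.3 and Pu.1 at 3 w.p.i. and for lost H3K27me3 at 24 w.p.i., and began just above it for gained H3K27me3 in DKO against WT (47.6 beside 46.8) and gained H3K9me3 at 24 w.p.i. (48.3 beside 46.9).

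H3.3, the replacement histone that Daxx deposits, was gained more often than lost at 7 of the 9 genes at 3 w.p.i. Jund, a constitutively expressed JUN protein, had 14 gained and 3 lost sites, Jdp2, a repressor that dimerises with JUN proteins, 10 and 3, and Atf3, a stress-induced regulator, 8 and 4. Batf and Junb had 3 and 5 gained sites and no lost one. At the Jdp2 promoter (chr12:85598701-85600200) H3.3 was 211 and 92.9 in Daxx-KO against 36.5 and 39.3 in WT, a log2 ratio of means of 2.00. At the Junb promoter (chr8:84978101-84979350) it was 94.8 and 97.3 against 61.7 and 7.86. The WT libraries were far apart, and the lower value belongs to the shallower WT library. Promoter sites of Fos and Fosb were lost, although the Fosb locus as a whole had 5 gained and 2 lost sites. Within Fos (chr12:85474551-85475450) H3.3 was 20.5 and 29.5 against 57.5 and 91.7, and at Fosb (chr7:19308201-19308850) it was 25.3 and 33.2 against 45.6 and 139. In all, promoter sites (within 1 kb of an annotated start of the member) were gained in 4 of 8 cases. Over the promoter sites of all protein-coding genes 75.4% were gained. The AP-1 share depended on the width, with 4 of 6 gained for promoters of 250 bp and 6 of 13 for 3 kb.

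Pu.1, which drives myeloid differentiation, was gained at all 16 listed sites of the Jund locus and at 6 of 7 at Fosb, where the libraries of the other site overlapped. The widest of these, chr8:70709551-70712950 downstream of Jund, held 478 and 375 normalised reads in Daxx-KO against 190 and 76.7 in WT. Junb had 9 gained and 1 lost site, and Jdp2 13 and 5. Atf3 stood apart with 1 gained and 6 lost sites, of which the intronic site chr1:191194851-191195450 read 7.09 and 21.1 against 49.1 and 118. At Jun, the founding JUN family member, the only listed site covered the promoter (chr4:95051801-95052750) and its libraries overlapped, with 74.0 and 77.8 against 42.3 and 169. At promoters 3 of 6 Pu.1 sites were gained and 2 lost, beside 75.0% and 22.1% over all promoters. With promoters of 3 kb 10 of 15 were gained and 4 lost. The promoter site with most Pu.1 reads was gained at 1 of 4 genes and lost at 2. The H3.3 and Pu.1 libraries of this time came from the same mice.

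H3K27ac at 3 w.p.i. was lower in Daxx-KO at the promoters of the AP-1 genes. Of 13 promoter sites 11 were lost and 2 gained, and the promoter site with most reads was lost in each of the 7 genes that had one. Over all protein-coding genes 70.7% of promoter sites were lost and 25.9% gained. At Jun (chr4:95051001-95052450), the Daxx-KO libraries held 158 and 74.8, against 212 and 494 in WT. At Fos (chr12:85473001-85473750) it was 84.3 and 56.1 against 132 and 145, the closest pair of WT values among these promoters. Fosb (chr7:19308701-19309750) gave 18.4 and 13.6 against 36.5 and 75.0, and Fosl2 (chr5:32136001-32136950) 25.2 and 18.7 against 30.1 and 79.4. The groups did not overlap at these promoters, although the higher Daxx-KO and the lower WT value were close at Fosl2. At Jund (chr8:70699901-70700600) one Daxx-KO library was near 0, with 12.6 and 0.85 against 26.9 and 51.9. Jdp2 (chr12:85599901-85600500) gave 15.5 and 13.6 against 25.8 and 51.9, and Atf3 (chr1:191183601-191184300, at the internal start that RefSeq also gives) 6.78 and 4.25 against 10.8 and 36.4. The log2 ratios of these 7 promoters ran from -2.55 (Jund) to -0.98 (Fos). With the scaling to mean reads per window, all 7 ratios stayed negative (-2.11 to -0.65), but the libraries then stayed separate only at Fosb and Jund. Per kb, the WT mean was highest at Jun (243) and Fos (184), whose libraries overlapped, followed by the other 5 genes at 33.7 to 64.7, which overlapped from one to the next. These listed sites were 600 bp (Jdp2) to 1450 bp (Jun) wide.

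**Figure D3:**
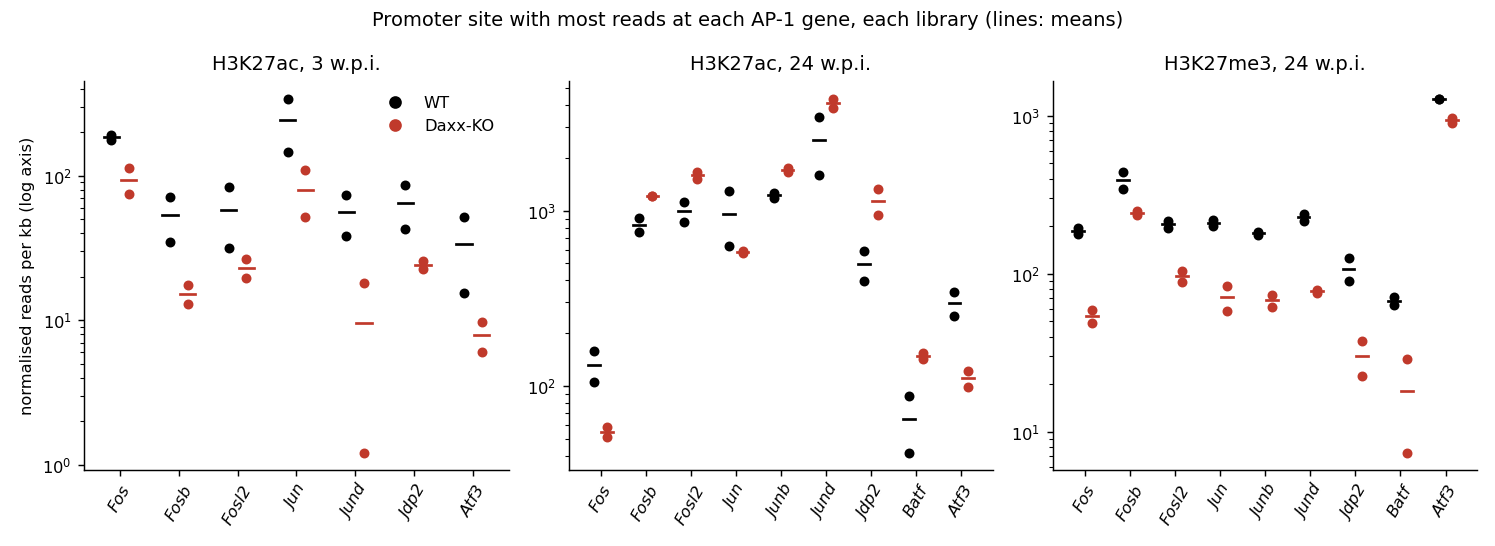
Normalised reads per kb (log axis) at the promoter site with most reads of each AP-1 gene in each WT (black) and Daxx-KO (red) library, with lines at the means of 2 libraries. H3K27ac was lower in Daxx-KO at all 7 listed promoters at 3 w.p.i., higher at 6 of 9 at 24 w.p.i., and H3K27me3 was lower at all 9 at 24 w.p.i.

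Over whole loci, promoters included, the H3K27ac sites at 3 w.p.i. split by gene. Jdp2 had 14 gained and 5 lost sites, the gained ones all outside its promoter, and Batf 2 gained and none lost. Fosb, Junb, Jun and Jund had 7, 6, 5 and 3 lost sites and none gained. The intronic Jdp2 site chr12:85627051-85629250, 24829 bp from the nearest annotated start, held 252.9 and 259.95 in Daxx-KO against 91.3 and 133 in WT, a log2 ratio of 1.19. Upstream of Fos, chr12:85467901-85468850 held 229.7 and 169.9 against 90.3 and 109, while its promoter was lost.

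Markers of other cell types changed in the same H3K27ac libraries. At 3 w.p.i. 18 of 24 sites at the 6 erythroid marker genes were lost (75.0%), beside 58.4% of all sites. Their summed level was 399 to 436 in Daxx-KO against 727 to 730 in WT. At the 5 HSPC markers 53 of 74 sites were gained (71.6%), beside 39.2% of all sites. Gained were also 28 of 43 at B-cell and 19 of 36 at neutrophil markers, while 5 of 5 at T-cell markers were lost. The part of cell composition in the AP-1 values was not tested.

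By 24 w.p.i. the promoter site with most H3K27ac was higher in Daxx-KO at 6 of the 9 AP-1 genes, and that with most H3K27me3 was lower at all 9. H3K27ac was gained at 73 and lost at 73 of 152 sites (48.03% each, 40.2 to 55.9), beside 41.3% gained and 56% lost over all autosomal sites. The scaling to mean reads per window moves the median ratio of all sites by 0.56 on the log2 scale, and the AP-1 split was then 80 gained and 47 lost, so that the share gained among separated sites went from 50.0% to 63.0%. Of 18 promoter sites 11 were gained and 7 lost, beside 48.4% and 47.3% for all promoters. By gene, 3 had only gained, 3 only lost and 3 both kinds of promoter site. With promoters of 3 kb the count was 19 gained and 22 lost of 41. The site with most reads was not picked for other genes. Summed H3K27ac also rose at lists with more lost than gained sites. The 8 kinases upstream of AP-1 (65 gained, 79 lost) held 30940.5 to 31360.8 in Daxx-KO against 25690.8 to 25997.5 in WT. The erythroid markers went the other way. Higher summed levels were thus not particular to the AP-1 genes.

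Fosl2, a FOS family member with slower and more lasting induction than Fos, had the widest gain at a promoter. Over chr5:32135251-32140800 the Daxx-KO libraries held 9270.5 and 8443 normalised H3K27ac reads, against 6231 and 4787 in WT, a log2 ratio of 0.68. At the Jdp2 promoter (chr12:85596851-85599950) the values were 4111 and 2926 against 1832 and 1229 (log2 ratio 1.20), and at Batf (chr12:85685701-85686800) 169 and 157 against 45.8 and 96.5 (1.19). Jund (chr8:70698501-70699550) gave 4572 and 4073 against 3615 and 1689. Junb (chr8:84975501-84976450) gave 1588 and 1672 against 1199 and 1122, and Fosb (chr7:19309701-19310400) 851 and 850.4 against 639 and 526. The groups were separate at each of these 6 promoters, with log2 ratios of 0.49 to 1.20, and stayed so with the other scaling (1.05 to 1.78). The Junb site lies at a second annotated start inside the gene.

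Fos, Jun and Atf3 were lower at the promoter site with most reads at this time. The Fos site lies near an annotated start inside the gene, so it does not show the level at the gene start. Atf3 showed the largest loss, with 592 and 482 in Daxx-KO against 1666 and 1210.3 in WT over chr1:191180951-191185800, a log2 ratio of -1.42. Further into the gene, the intronic block chr1:191195251-191200500 held 1095 and 1149 against 2224 and 2264, with close replicates in both groups. In all, Atf3 had 20 lost and 6 gained H3K27ac sites. Fos lost reads within the gene (chr12:85475351-85475950, 35.2 and 30.7 against 95.0 and 63.3), and Jun at its promoter (chr4:95051351-95052150), where the second WT library, at 499.95, was close to the Daxx-KO values of 461 and 469.8. With the other scaling the Jun libraries overlapped, at a log2 ratio of -0.16. Jun had 5 lost sites and none gained. Jdp2, by contrast, had 19 gained and 5 lost sites, among them the intronic site chr12:85628301-85631000 with 4157 and 3362 against 1594 and 1596, which overlapped the site gained at 3 w.p.i.

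Per kb, H3K27ac at the WT promoters at 24 w.p.i. was highest at Jund (2526 ± 1297, SD, n = 2), then Junb (1221 ± 57.2), Fosl2 (993 ± 184), Jun (962 ± 477), Fosb (832 ± 114), Jdp2 (494 ± 138), Atf3 (296 ± 66.4), Fos (132 ± 37.3) and Batf (64.7 ± 32.6). The libraries of Fosl2 and Jun and of Jun and Fosb overlapped, and other neighbours in this order did not. Genes further apart in the order can overlap too, as Jun (1300 and 625) did with Junb (1262 and 1181). In Daxx-KO, Jund stayed first at 4117 ± 335, Jdp2 reached 1135 ± 270, which overlapped Fosb at 1215 ± 0.828, and Atf3 fell below Batf. These are levels at listed sites of unequal width, not over whole promoters, and the Fos and Junb sites lie inside their genes.

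At 24 w.p.i. 81 of 96 H3K27ac sites at the 7 neutrophil marker genes were gained (84.4%), beside 41.3% of all sites. All 7 genes had more gained than lost sites, and their summed level was 59016 to 61374.5 in Daxx-KO against 29981 to 34160.5 in WT. At the 6 erythroid markers 24 of 32 sites were lost (75.0%), beside 56% of all sites. Gained were 57 of 99 sites at HSPC, 40 of 76 at B-cell and 6 of 10 at T-cell markers. Whether these changes in marker genes bear on the AP-1 values was not tested.

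**Figure D4:**
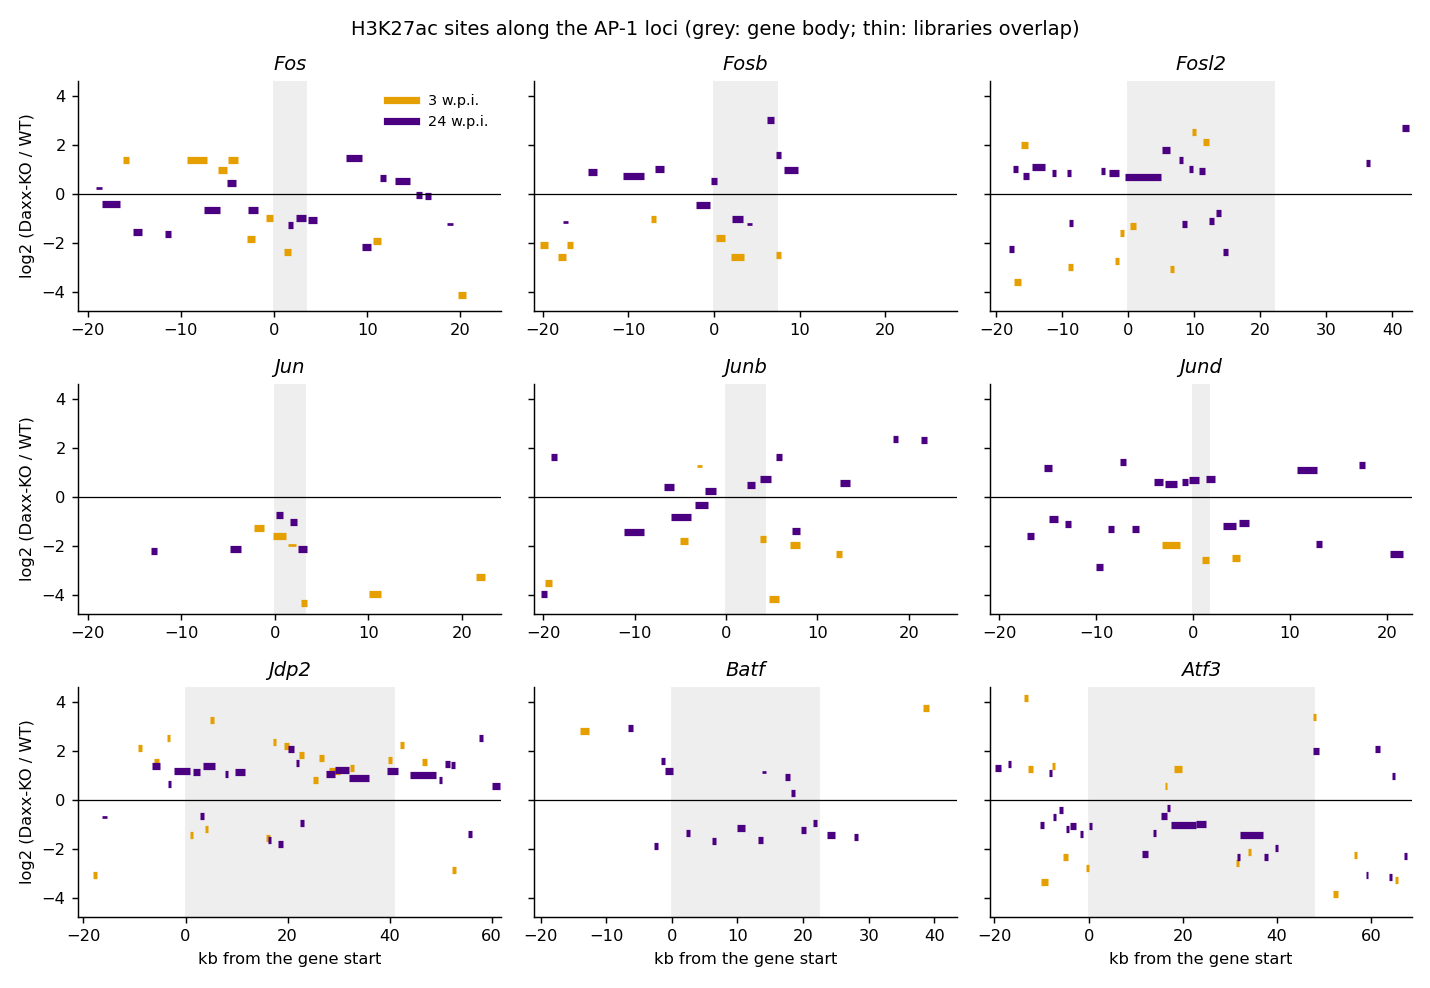
H3K27ac sites along the 9 AP-1 loci, with the distance from the gene start in kb (transcription to the right) and the log2 ratio of Daxx-KO over WT means, at 3 w.p.i. (orange) and 24 w.p.i. (purple). Thin bars are sites whose libraries overlap. Sites across the Jdp2 gene lay mostly above 0 at both times, while the 9 intronic and 2 promoter sites of Atf3 at 24 w.p.i. lay below 0.

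H3K27me3, laid down by Polycomb complexes at repressed promoters, was lost at 56 of 74 sites in Daxx-KO at 24 w.p.i. (75.7%, 64.8 to 84.0) and gained at 12 (16.2%), beside 56.8% lost and 40.8% gained over all sites. At the GC content of these sites 61.5% of all sites were lost, below the interval of the AP-1 loci. With the other scaling 43 AP-1 sites were lost (58.1%), and 47.3% of all sites. At promoters 13 of 16 sites were lost and 1 gained, beside 63.5% and 29.1% over all promoters, and the site with most reads was lost at 9 of 9 genes, of which 7 stayed separate with the other scaling (Fosb and Atf3 then overlapped). Fos (chr12:85472051-85475250) had 156 and 188 in Daxx-KO against 572 and 627 in WT, and Jun (chr4:95051551-95054050) 145 and 209.8 against 549.9 and 498. Junb (chr8:84977501-84980800) had 243 and 204 against 583 and 607. In these 3 genes, and in Jund, Jdp2 and Batf below, each WT value was more than 2 times the higher Daxx-KO value. Jund (chr8:70698151-70700000) gave 147 and 139.8 against 399.6 and 443, Jdp2 (chr12:85598151-85600800) 59.8 and 99.4 against 238 and 331, and Fosl2 (chr5:32134551-32137350) 248.9 and 291 against 605 and 549.7. Batf (chr12:85686651-85687650) was low in both groups, at 28.7 and 7.36 against 63.5 and 71.4. Fosb (chr7:19307651-19309250), at 400.4 and 376 against 551 and 705, changed less, with a log2 ratio of -0.69. In the same libraries 18 of 19 sites at the 3 T-cell marker genes were lost (94.7%), and 15 of 21 at erythroid and 14 of 22 at neutrophil markers. At HSPC markers 23 of 42 were lost (54.8%) and at B-cell markers 51 of 107 (47.7%), both below the share of all sites. The part of cell composition was not tested.

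Atf3 was the exception. Per kb it carried most H3K27me3 of the 9 promoters, 1283 ± 3.16 in WT and 936 ± 50.8 in Daxx-KO (SD, n = 2), and the loss there (chr1:191183951-191184550) was small, with 583 and 540.01 against 768 and 771. Next in WT came Fosb with 393 ± 68.3, and the other 7 genes lay between 67.4 and 228. These are listed sites of unequal width, 600 bp at Atf3 and from 1000 bp (Batf) to 3300 bp (Junb) at the others, not whole promoters. Towards the 3′ end of Atf3 and beyond it H3K27me3 was gained in Daxx-KO, with 345 and 383 against 189.5 and 161 at chr1:191162401-191164750, which also covers the start of Fam71a, and 247 and 316 against 148 and 149.9 at chr1:191169201-191171150. Atf3 thus had 8 gained and 6 lost sites.

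The DKO mice, which lack Pu.1 as well, were compared for H3K27me3 at 8 w.p.i. Against WT, 23 of 36 AP-1 sites were gained (63.9%, 47.6 to 77.5), 2 were lost and 11 overlapped, beside 46.8% gained and 42.5% lost over all sites. Without DKO replicate 3, which was low at several promoters, 31 of 36 were gained (86.1%). Leaving out a library can only keep or raise this share. Against Daxx-KO, 25 of 38 were gained (65.8%, 49.9 to 78.8) and 7 lost, beside 55.5% and 28.7%. The comparisons share the DKO libraries. Most of the gains fell on 2 genes: Atf3 had 10 gained and 1 lost site against WT and 15 and 1 against Daxx-KO, and Fosl2 had 5 and 7 gained and none lost. No site was listed at Junb or Jund in either table.

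The block upstream of and across the Fosl2 start (chr5:32129601-32136450, 6850 bp) was the H3K27me3 site of the family with the largest difference in normalised reads. It held 1433, 576 and 669 normalised reads in DKO against 144, 119.6 and 137.5 in WT, a log2 ratio of 2.74, so that the lowest DKO value, 576, stood against a highest WT value of 144. Against Daxx-KO the listed part, chr5:32129851-32132750, held 529.9, 329.7 and 463 against 154, 208 and 174 (1.30). In Daxx-KO at 24 w.p.i. the same stretch held a smaller gain, chr5:32130601-32131650 with 187.5 and 267 against 142 and 117, next to the loss over the promoter. Inside Atf3 the site chr1:191188801-191190150 was even across libraries, with 242, 247 and 234 in DKO against 156, 133 and 123. Promoters of the other genes varied between the DKO animals. At Jdp2 (chr12:85598251-85600150) they gave 537, 61.1 and 0 against 89.2, 58.9 and 22.4, and at Fos (chr12:85473501-85475550) 275, 117 and 16.3 against 57.7, 43.5 and 24.6, so the groups overlapped. Fosb had 5 gained sites against WT and 5 lost against Daxx-KO. In the same libraries 75 of 93 sites at B-cell marker genes were lost in DKO against WT (80.6%), beside 42.5% of all sites. The 93 sites were all listed at 2 of the 5 genes, of which 1 had more lost and 1 more gained sites. At erythroid markers 10 of 11 were gained, at HSPC markers 13 of 15, at neutrophil markers 7 of 10 and at T-cell markers 2 of 3. Over all sites 46.8% were gained, and the part of cell composition was not tested.

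H3K9me3 was listed at few AP-1 sites early on. At 3 w.p.i. there were 4 sites, 1 gained and 3 lost, beside 78.6% gained and 21% lost over all sites, and at 8 w.p.i. in Daxx-KO again 4, with 1 gained and 3 lost, beside 57.6% and 31.5%. DKO had 3 lost sites against WT (all sites 47.7% gained and 17.9% lost) and 1 lost site against Daxx-KO (44.8% and 24.8%). Most of these lay in one block downstream of Atf3, chr1:191156101-191162050, which spans 5950 bp and lies 8246 bp beyond the 3′ end of the gene. At 3 w.p.i. it held 53.5 and 55.0 in Daxx-KO against 333 and 369 in WT, a log2 ratio of -2.70. At 8 w.p.i. the part chr1:191157851-191160700 held 44.3, 38.6 and 10.7 in Daxx-KO against 179, 92.8 and 159 in WT. In DKO the part chr1:191159351-191161100 held 2.16, 6.91 and 4.60 against 50.3, 30.1 and 47.98 in WT, although DKO replicates 1 and 2 had only 0.67 and 0.21 reads per window. At 24 w.p.i. chr1:191158251-191162000 held 80.3 and 183 in Daxx-KO against 448 and 391 in WT. Sites overlapping the block were lost in all 5 H3K9me3 tables, 10 sites in all. Repeats marked in the assembly cover 21.8% of it. The 8 w.p.i. tables share their WT, Daxx-KO and DKO libraries in pairs.

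**Figure D5:**
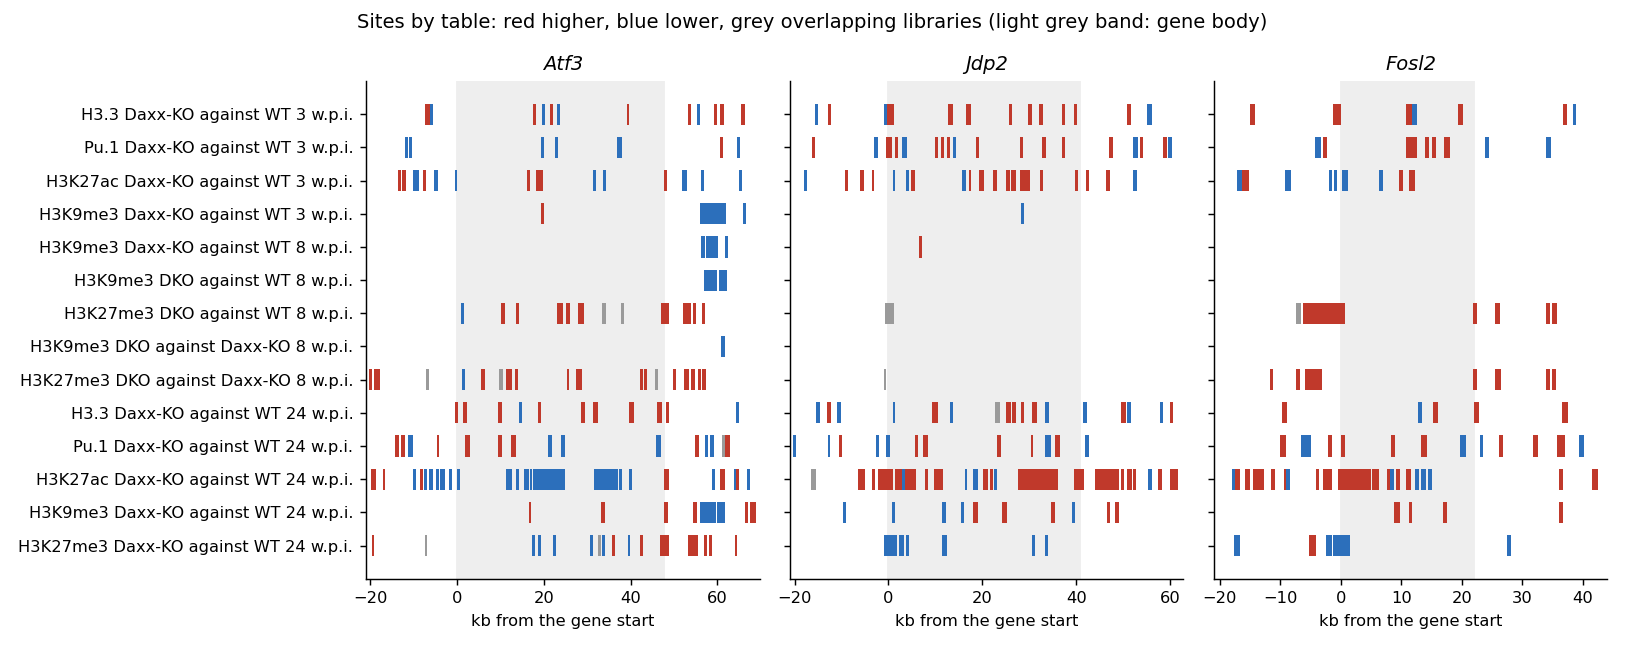
Listed sites at Atf3, Jdp2 and Fosl2 in the 14 tables (rows), by distance from the gene start in kb, red where gained, blue where lost and grey where libraries overlap. The lost H3K9me3 block lies about 56 to 62 kb from the Atf3 start in every H3K9me3 row, and the wide red H3K27me3 bar before the Fosl2 start is the gain in DKO.

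At 24 w.p.i. H3K9me3 was listed at 32 AP-1 sites, of which 21 were gained (65.6%, 48.3 to 79.6) and 11 lost, beside 46.9% and 50.3% over all sites. At equal GC content 58.6% of all sites were gained, within the AP-1 interval. Jund had 5 gained sites and none lost, and Fosl2 4. The Jund promoter (chr8:70698351-70699400) read 28.7 and 89.6 against 13.99 and 7.50. At Atf3 (chr1:191183951-191184950) the values were 28.7 and 71.9 against 6.22 and 0.

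H3.3 at 24 w.p.i. was gained at 40 of 69 AP-1 sites (58.0%, 46.2 to 68.9) and lost at 28, beside 51.3% and 47%. Atf3 had 9 gained and 2 lost sites and Fos 4 and 1. Upstream of Fos, chr12:85453551-85456000 held 236 and 247 in Daxx-KO against 12.9 and 30.1 in WT (log2 ratio 3.49). At the Junb promoter (chr8:84978251-84979200) H3.3 was instead 0 and 20.4 against 60.9 and 95.9, and at Jun (chr4:95050901-95052000) 2.21 and 43.01 against 109 and 79.0.

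Pu.1 at 24 w.p.i. was gained at 35 of 73 sites (47.9%, 36.9 to 59.2) and lost at 37 (50.7%), beside 46.9% and 51.3%. At promoters 7 of 8 sites were lost, beside 54.4% of all promoter sites, but with promoters of 3 kb 10 of 19 were gained and 9 lost. Junb (chr8:84979251-84980550) had 15.0 and 4.18 in Daxx-KO against 129.5 and 92.6 in WT, a log2 ratio of -3.53. Fos (chr12:85471951-85473050) had 0 and 16.7 against 54.7 and 94.7, Jdp2 (chr12:85598401-85599300) 0 and 8.36 against 47.5 and 44.2, and Jund (chr8:70698401-70699000) 11.6 and 16.7 against 104 and 33.7. Fosl2 was the promoter with a gain, 84.5 and 60.6 against 0 and 10.5 (chr5:32135851-32136550). These 5 sites rest on 0 to 124 reads a library.

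Where a mark was listed at overlapping sites at both 3 and 24 w.p.i., directions often differed. For Pu.1, 18 such pairs lay in the AP-1 loci. Of these, 7 kept their direction and 11 went from gained to lost, none the reverse. Of all overlapping Pu.1 pairs 52.1% changed direction, 18253 of them from gained to lost and 9538 the reverse. For H3K27ac, 31 of 58 pairs kept their direction and 27 changed it (46.6%), 21 of them from lost to gained. Of all H3K27ac pairs 39.5% changed, 8779 from lost to gained and 6949 the reverse. For H3.3, 10 of 20 changed, 9 of them from gained to lost. Of all H3.3 pairs 48.8% changed, 13157 from gained to lost and 8399 the reverse. Mice, depth and site width differed between the times.

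The motifs searched, on both strands, were the AP-1 element TGACTCA, the CRE TGACGTCA, its first 6 bases TGACGT and the Pu.1 motif GAGGAAGT. TGACGT lies within the CRE and was added after the data were seen. In the RefSeq promoters of the 9 genes (GRCm38.p6, 250 bases before each of 11 starts), the AP-1 element, the CRE and the Pu.1 motif were each in 0 of 11, and in 4.501%, 1.58% and 2.47% of 31396 promoters. The RefSeq window of Jund (chr8:70697489-70697738) lies upstream of its GENCODE start, so the CRE just before that start is outside it. TGACGT was in 4 of 11 (Fos, Atf3, Jdp2 and Batf), beside 6.52% of all promoters. The Fos, Atf3 and Jun promoters are shown on the strand of the gene, with TGACGT or its complement in capitals. These genes were picked because their promoter site with most H3K27ac reads was lower in Daxx-KO at both times. Other H3K27ac sites at the Fos and Atf3 loci were gained. The picked sites do not all cover the sequences shown, and the Fos site of the later time lies inside the gene. The promoters shown lie at chr12:85473640-85473889 (plus strand), chr1:191183334-191183583 (minus strand) and chr4:95052223-95052472 (minus strand, without the motif).

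Fos promoter: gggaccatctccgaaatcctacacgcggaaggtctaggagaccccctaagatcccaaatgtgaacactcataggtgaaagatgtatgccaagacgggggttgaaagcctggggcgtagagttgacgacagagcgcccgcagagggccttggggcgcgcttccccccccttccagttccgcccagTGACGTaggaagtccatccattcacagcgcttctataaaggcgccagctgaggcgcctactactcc

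Atf3 promoter: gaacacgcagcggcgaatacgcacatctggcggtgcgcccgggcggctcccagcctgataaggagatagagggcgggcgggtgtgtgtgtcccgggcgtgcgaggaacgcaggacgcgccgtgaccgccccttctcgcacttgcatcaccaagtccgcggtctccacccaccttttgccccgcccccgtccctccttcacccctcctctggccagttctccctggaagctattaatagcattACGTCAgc

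Jun promoter: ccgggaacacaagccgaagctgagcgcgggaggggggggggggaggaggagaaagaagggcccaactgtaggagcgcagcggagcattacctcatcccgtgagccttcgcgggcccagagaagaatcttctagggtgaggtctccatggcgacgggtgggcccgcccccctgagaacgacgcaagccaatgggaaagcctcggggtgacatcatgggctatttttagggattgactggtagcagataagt

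In windows of 300 bases at the middle of the sites, TGACTCA was in 8 of 69 AP-1 sites for H3.3 at 24 w.p.i. (11.6%), beside 5.34% of all sites, and in 4 of 76 for H3K27ac at 3 w.p.i. (5.26%), beside 5.87%. At the other time, TGACTCA was in 4 of 69 for H3.3 at 3 w.p.i. (5.80%, beside 4.97%) and 10 of 152 for H3K27ac at 24 w.p.i. (6.58%, beside 5.62%). GAGGAAGT was in 3 of 80 Pu.1 sites at 3 w.p.i. (3.75%), beside 2.09%, and in 1 of 73 at 24 w.p.i. (1.37%), beside 2.10%. A match is only a run of letters, and none of these shares rests on more than 10 sites. The windows below hold a motif in sites with different directions, and the motif is in capitals. The Jund window (chr8:70698705-70698772, plus strand) lies where Pu.1 and H3K27me3 were lost and H3K27ac and H3K9me3 gained at 24 w.p.i. The Jdp2 window (chr12:85600251-85600317, plus strand) lies in the promoter site that lost H3K27ac at 3 w.p.i. and H3.3, H3K9me3 and H3K27me3 at 24 w.p.i. The Atf3 window (chr1:191199002-191199068, plus strand) lies in the intron, where H3K27ac went from gained to lost. The Junb window (chr8:84968671-84968738, minus strand), downstream of the gene, lies where Pu.1 read 34.7 and 47.02 in Daxx-KO against 17.8 and 6.39 in WT at 3 w.p.i., and 0 and 0 against 37.4 and 63.2 at 24 w.p.i.

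Jund, CRE: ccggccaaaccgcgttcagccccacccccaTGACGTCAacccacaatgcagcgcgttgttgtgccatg

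Jdp2, AP-1: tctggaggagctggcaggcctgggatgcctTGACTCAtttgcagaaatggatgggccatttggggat

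Atf3, AP-1: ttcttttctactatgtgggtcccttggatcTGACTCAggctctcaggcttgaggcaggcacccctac

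Junb, Pu.1: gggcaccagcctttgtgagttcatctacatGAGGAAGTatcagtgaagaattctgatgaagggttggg

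The same counts were made for other genes of the network, without a test against the AP-1 loci. At 3 w.p.i. H3.3 was gained at 76 of 99 sites (76.8%) of the 15 other immediate-early and feedback genes (Egr1, Ier2, Dusp1, Zfp36, Klf2 and others), at 92 of 130 (70.8%) of the 17 other bZIP partners (Maf, Bach, Nfe2 and ATF genes) and at 46 of 67 (68.7%) of the 8 kinases upstream of AP-1 (Mapk8, Map2k4, Mapk14 and others), beside 57.7% of all sites. Pu.1 was gained at 87 of 115 (75.7%), 118 of 168 (70.2%) and 44 of 65 (67.7%) of their sites, beside 54.1%. These shares all lie within the intervals of the AP-1 loci. H3K27ac at 3 w.p.i. was lost at 67 of 102 sites (65.7%) of the immediate-early genes, 93 of 139 (66.9%) of the bZIP partners and 31 of 75 (41.3%) of the kinases, beside 58.4% of all sites. H3K27me3 at 24 w.p.i. was lost at 78 of 111 sites (70.3%), 95 of 152 (62.5%) and 19 of 32 (59.4%), beside 56.8%, and 12 of the 15 immediate-early genes had more lost than gained sites.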

How the data were processed

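CUT&Tag libraries of HSPCs were compared by the authors with diffReps 1.55.6, per the file headers (windows of 600 bp, step 50 bp, fragment 100 bp, negative binomial test, window cutoff 0.0001, mm10). Tools named in the submitters' processing notes are CASAVA 1.8.4, cutadapt 1.13, STAR 2.5.3 and bedtools, whose parameters are not given in the sources used here. Each deposited value is a normalised count per library, that is the authors' reads in a site divided by the library constant of the header. Multiplied back, low values were whole reads within 0.15 in each library but one (DKO H3K9me3 replicate 2 against Daxx-KO, 88.7% whole). The tables also hold group means, log2 fold changes, p-values and adjusted p-values of the authors, which were not used. One table, of H3K27me3 in Daxx-KO at 8 w.p.i., was left out because its control columns are H3K9me3 libraries, so 14 of 15 remained.

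Sites overlapping a member gene body plus 20 kb were taken by at least 1 bp, and coordinates are 1-based. Ratios are of group means. Where a group was at 0, 3 reads in the library with its smallest constant stood in for it, which gives a bound. Named sites were, for each gene and table, the promoter site with most reads, up to 2 other separated sites with the largest ratio and a higher group mean of at least 20, and sites listed in 2 or more tables, and every other site singled out was chosen after its values were seen. Members and lists were chosen with earlier results of these data known. No model was fitted across sites, since only differing sites are listed. Libraries of the same number in different genotypes come from different mice, and the numbers are separate mice. The H3.3 and Pu.1 libraries at 3 w.p.i. come from the same animals, as do the marks at 24 w.p.i. The counting of directions was tested on simulated data. Alternatives were other flanks, filters, scaling, merging and left-out libraries. Python 3.11.15, numpy 2.4.6, pandas 2.3.3, scipy 1.17.1, pysam 0.24.0 and matplotlib 3.10.9 were used.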

Additional observations from a re-analysis of the deposited data

Results flagged for a closer look

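For 5 pairs of a gene and a mark, the promoter site with most reads changed sides between the times. Every Daxx-KO library lay on one side of WT at 3 w.p.i. and on the other side at 24 w.p.i. Jdp2 is among them for both H3.3 and H3K27ac. The difference between the times was not tested, since the libraries come from different mice and the sites are different stretches. The sites of the 2 times shared 50 bp for H3K27ac at Fosb and at Jdp2, 300 bp for H3.3 at Jdp2, and 950 bp for H3.3 at Junb and H3K27ac at Fosl2. For H3.3, the log2 ratio of Daxx-KO over WT was 1.47 at 3 w.p.i. and -2.94 at 24 w.p.i. at Junb, and 2.00 and -2.93 at Jdp2. At Junb a second, overlapping promoter site (chr8:84978951-84979750) was gained at 24 w.p.i., with a log2 ratio of 3.03. For H3K27ac, it was -1.80 and 0.55 at Fosb, -1.32 and 0.68 at Fosl2, and -1.42 and 1.20 at Jdp2. Scaled to mean reads per window, the H3K27ac ratios kept their signs at both times, but at 3 w.p.i. the libraries of Fosl2 and Jdp2 then overlapped.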

How the results depend on the processing

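Alternatives that left out a library could move a gained share upwards only. Tables with few AP-1 sites have wide intervals, such as 4.56 to 69.9% for 4 H3K9me3 sites in Daxx-KO at 3 w.p.i. Staying within the interval says little in these cases. Of 175 alternatives to the gained percentages, 168 stayed within the 95% interval of the main value. The others were H3K9me3 in Daxx-KO at 3 w.p.i., where asking for a group mean of at least 20 left 0% gained, H3K9me3 in Daxx-KO at 8 w.p.i., with 100% in gene bodies alone and 0% at that group mean, H3K27me3 in DKO against WT, with 94.4% by the sign of the means and 63.9% to 86.1% with a library left out, H3K27me3 in DKO against Daxx-KO, with 47.4% after scaling, and H3K27me3 at 24 w.p.i., with 9.38% in gene bodies alone. The 29 gained and 50 lost promoter sites over all tables became 63 and 91 with promoters of 3 kb and 19 and 32 with 250 bp. Of 630 named sites with separate libraries, 561 stayed separate under the scaling and 7 H3K27ac sites at 24 w.p.i. turned from lost to a higher mean, with log2 ratios of 0.16, 0.51 and 0.47 at Fos, 0.13 at Fosb, 0.26 at Junb, and 0.23 and 0.17 at Atf3. Leaving out a library changed the sign at 0 of them, which the definition of separate libraries fixes in advance, so it is no check. The GC background and the motif TGACGT were chosen after seeing the data. No paired analysis was possible because no model was fitted and libraries with the same number belong to different mice. The shallowest libraries were DKO replicates 1 and 2 for H3K9me3, at 0.20 to 0.69 reads per window.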
